A study of Mus musculus with 81 samples.

Results

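WSB/EiJ is an inbred mouse strain founded from wild house mice of the subspecies Mus musculus domesticus. Its bone marrow neutrophils were compared with those of the classical laboratory strains of the same panel. The members were the 2 arrays whose titles name WSB, of 81 arrays in all. The comparison group was every title group other than the 5 wild-derived ones, which gave 71 arrays in 35 classical strain groups. The 4 other wild-derived strains, CAST/EiJ, JF1/Ms, MSM/Ms and PWD/PHJ, had 8 arrays and served as a second reference. In every group, cells carrying CD11b and Ly6G were sorted from the bone marrow of male mice whose age is given as 6 weeks, and each sample was a pool of a few animals. The labels name no treatment and no engineered allele, while the strain name KK.Cg-Ay/J and the background label BTBR T+ tf/J, both of classical groups, name spontaneous mutations. RNA was hybridised to Affymetrix mouse gene arrays, on which a probe set is a group of short probes read as 1 value. Of the strain groups, 37 had 2 arrays, C57BL/6J had 5, and FVB/NJ and SWR/J had 1 each. The 5 groups titled BPL, BTBR, Balb, C57BR and DBA2, with 10 arrays, carry a background label that differs from the title and were kept under their titles.

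Neutrophils are short-lived phagocytes made in the bone marrow, where they fill granules with antimicrobial proteins in a fixed order as they mature. They sense microbes through Toll-like receptors and C-type lectins, and they respond to type I interferon by switching on a broad set of antiviral genes. Most of the genome of classical strains also descends from Mus musculus domesticus, whereas CAST/EiJ, PWD/PHJ and the Japanese strains JF1/Ms and MSM/Ms descend wholly or largely from other subspecies. Array probes follow the sequence of the reference strain C57BL/6J, and a variant or a lost or repeated segment under a probe changes its signal. A change in RNA level and a change in probe binding therefore cannot be told apart for a single probe set, in either direction. In sorted bulk samples, fewer cells of a type and less RNA per cell cannot be told apart either.

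All values are log2 intensities, so that a difference of 1 is 2-fold. The deposited linear values ran from 5.3 to 19348, and array medians lay between 97.2 and 114.8, with 106.2 and 104.4 for WSB/EiJ. The WSB/EiJ arrays correlated with each other at 0.9963 over all probe sets, against 0.9757 to 0.9969 within all strains of 2 or more arrays. Their median correlation with all other arrays was 0.984 and 0.985, inside the range of 0.962 to 0.988 over the panel. No detection calls were used, so low values have no known floor. The number of arrays, 2 for this strain, limits the precision.

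The sorted cells carried the neutrophil programme. All 12 neutrophil identity markers were measured, and their mean level was 13.31 and 13.37 on the WSB/EiJ arrays, within the classical range of 13.27 to 13.41. Ly6g, the gene of the sorting antigen, read 13.83 and 13.87 (classical 13.44 to 13.88), and Itgam, which encodes CD11b, read 12.71 and 12.67 (12.48 to 12.80). The remaining markers with values inside or at the edge of the classical span were S100a9, Csf3r, Cxcr2, Ngp, Ltf, Mmp8, Mmp9 and Retnlg. S100a8, a subunit of the calprotectin heterodimer, was the exception, at 13.03 and 13.20 against 13.42 to 13.63 over the classical strains. PWD/PHJ was as low, at 13.06, while CAST/EiJ, JF1/Ms and MSM/Ms lay at 13.42 to 13.46. In WSB/EiJ S100a8 was lower by a small amount (-0.39 ± 0.06 SE, adjusted p = 1.8e-04 in limma), near the top of the intensity scale. This call was lost after quantile normalization (-0.33, adjusted p = 0.11). Camp, the cathelicidin of specific granules, read 12.71 and 12.84 (12.74 to 13.53) and did not pass in the strain fit (-0.45, adjusted p = 0.76).

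Each strain was first reduced to 1 mean per probe set, and the WSB/EiJ mean was set against the spread of the 35 classical means. This asks whether WSB/EiJ lies outside what classical strains differ by among themselves. The single WSB/EiJ mean is taken to vary like a classical strain mean. Of 24922 probe sets, 111 passed an adjusted p of 0.05 (0.445%), 65 higher (0.261%) and 46 lower (0.185%), with 53 at least 2-fold. The balance depended on how brightness was defined. Of the calls, 23 higher (0.212%) and 44 lower (0.406%) fell among the 10827 brighter probe sets, those averaging 7 or more over all strains. A fit on these alone called 24 higher and 50 lower, so the higher share fell from 58.6% to 32.4%. Such an average can leave out genes bright in WSB/EiJ only, such as Actn2 (6.51), and keeps genes dim in WSB/EiJ only. With a cut that kept each probe set reaching 7 in any strain, 42 were called higher and 50 lower (45.7% higher). The count of 111 over all probe sets rose to 190, with 94 higher, when arrays were fitted with the strain as a random block. The calls had absolute differences of 0.39 to 3.99 (median 0.98), while the median difference over all probe sets was 0.00. In 60 of the higher and 45 of the lower calls both WSB/EiJ arrays lay beyond all 35 classical means. Such separation occurred in 357 probe sets on the higher side (1.43%) and 359 on the lower side (1.44%) of the whole array. By gene, taking the brightest probe set, 49 were higher and 38 lower.

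Cwc22 showed the largest difference. This gene encodes a splicing factor that places the exon junction complex, and in WSB/EiJ it is known to lie in a repeated segment, R2d2, that distorts transmission through female meiosis. Cwc22 read 11.90 and 11.96 in WSB/EiJ, against a lowest classical mean of 7.20, a median of 7.91 and a highest of 8.94. Both arrays stood far above every other strain, since the 4 other wild-derived means were 8.87 in CAST/EiJ, 8.26 in JF1/Ms, 8.03 in MSM/Ms and 7.70 in PWD/PHJ. The difference was 3.99 ± 0.33 (SE, adjusted p = 7.0e-11) from the classical mean and 3.71 ± 0.38 (adjusted p = 1.2e-08) from the other wild-derived strains. A separate Cwc22 probe set gave 9.95 and 9.99, against 7.14 to 7.77, and a difference of 2.52 ± 0.19. Copy number was not measured, and its part in these values was not tested.

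Actn2, the alpha-actinin of striated muscle Z-discs, was high in WSB/EiJ. It read 9.68 and 9.66 there and between 6.28 and 6.62 (median 6.44) in the classical strains, whose SD was 0.08 (n = 35). The other wild-derived strains lay at 6.27 to 6.39, so WSB/EiJ stood alone, with a difference of 3.23 ± 0.09 (adjusted p = 4.7e-26). Mrps36, a small protein first described in the mitochondrial ribosome, followed the same pattern at 8.48 and 8.86 against 5.46 to 6.04. The difference was 2.96 ± 0.13 (adjusted p = 7.7e-20), and a separate Mrps36 probe set gave 2.88 ± 0.18.

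Perp, a membrane protein of desmosomes and a p53 target, was high in WSB/EiJ but not in it alone. The arrays read 9.56 and 9.40, against 5.73 to 7.02 in the classical strains, a difference of 3.28 ± 0.35 (adjusted p = 9.3e-08). CAST/EiJ at 10.84, MSM/Ms at 10.18, JF1/Ms at 10.02 and PWD/PHJ at 9.50 were all at or above it. The difference from those strains was -0.65 ± 0.41 (adjusted p = 0.82). Bphl, a serine hydrolase, was likewise high in both: 7.80 and 7.59 in WSB/EiJ, 5.75 to 6.48 in the classical strains and 6.87 to 7.80 in the other wild-derived strains.

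Nqo1 encodes a quinone reductase and is a standard target of the antioxidant regulator Nrf2. It read 8.46 and 8.37 in WSB/EiJ, while the classical means ran from 5.76 to 7.12 (median 6.23) and the other wild-derived means from 5.36 to 6.22. No strain overlapped WSB/EiJ. The difference was 2.10 ± 0.33 (adjusted p = 1.8e-04) from the classical and 2.69 ± 0.37 (adjusted p = 8.8e-06) from the other wild-derived strains. The rest of the antioxidant list did not share this rise, as described with the gene lists.

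Ear6, an eosinophil-associated ribonuclease with many near-identical paralogs, read 9.66 and 9.50 against 6.48 to 8.47. It was higher by 2.36 ± 0.54 (adjusted p = 0.028). The defining eosinophil genes were not above their classical ranges. Prg2, the major basic protein, read 6.35 and 6.08 (6.09 to 6.73), Epx, eosinophil peroxidase, read 5.81 and 5.52 (5.42 to 5.86), and Siglecf read 8.27 and 8.16 (7.76 to 8.67). Il5ra, Prg3 and Alox15 also lay within the classical span, and Ccr3 read 6.16 and 6.30 (6.21 to 7.52). Of 8 measured eosinophil markers, Ear6 alone passed in the strain fit.

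The remaining leading genes on the higher side, Zfp182, Hltf, Adamdec1, F930017D23Rik and Zfp157, differed by 1.38 to 1.82. Hltf, a helicase-like factor of DNA damage tolerance, read 9.87 and 9.89 against 7.93 to 8.99, and was also above all other wild-derived strains (1.95 ± 0.26, adjusted p = 5.7e-06). F930017D23Rik read 9.85 and 9.66 against 8.01 to 8.70. Adamdec1, a decysin metalloprotease, had the widest gap between the WSB/EiJ arrays, at 6.61 and 7.40 against 5.25 to 6.16, and PWD/PHJ reached 7.27. The zinc finger genes Zfp182 and Zfp157 had called differences of 1.82 ± 0.31 and 1.38 ± 0.32. The call for Zfp157 ended when arrays were set to a common median (adjusted p = 0.059) or when the groups of conflicting labels were left out (adjusted p = 0.051).

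On the lower side, Usp46, a deubiquitinase, showed the largest fall. It read 7.32 and 7.15 in WSB/EiJ against 7.98 to 10.16 (median 9.72). The nearest classical strains were 129S1/SvImJ at 7.98 and a strain at 8.40, and the difference was -2.38 ± 0.40 (adjusted p = 4.7e-04). Rnf24, a RING finger protein, lay farthest below the classical range among the leading lower genes, at 7.07 and 7.20 against 8.51 to 9.22. The other wild-derived strains lay at 8.74 to 9.24, and Rnf24 was lower by 1.80 on the log2 scale (SE 0.19, adjusted p = 3.9e-08).

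Dennd11 and Rragd were low in all wild-derived strains. Dennd11, a DENN domain protein, read 7.35 and 7.26 in WSB/EiJ, 7.13 to 7.82 in the other wild-derived strains and 8.46 to 9.42 in the classical strains (-1.81 ± 0.21, adjusted p = 2.8e-07). Its dimmer probe set did not pass (-0.96, adjusted p = 0.19). Rragd, a Rag GTPase that links amino acids to mTORC1, read 5.82 and 5.93, next to 6.04 to 6.09 in the other wild-derived strains and 6.86 to 8.11 in the classical strains (-1.64 ± 0.33, adjusted p = 5.9e-03).

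Plac8, a small cysteine-rich protein that neutrophils use in killing bacteria, read 8.52 and 8.41 against 9.17 to 10.26 in the classical strains (-1.39 ± 0.23, adjusted p = 4.3e-04). CAST/EiJ at 9.69 and PWD/PHJ at 8.99 were higher than WSB/EiJ, while JF1/Ms at 6.24 and MSM/Ms at 7.01 were lower. Because of that spread, Plac8 was not called when all wild-derived strains entered the fit (adjusted p = 0.65). Plau, the urokinase plasminogen activator, read 7.74 and 7.55 against 8.54 to 9.33 (-1.31 ± 0.21, adjusted p = 3.7e-04), and the other wild-derived strains stayed at 8.77 to 9.08. Serpinb6a, an intracellular inhibitor of serine proteases, read 6.15 and 6.12 against 6.60 to 8.21, with CAST/EiJ at 6.31. It was lower by 1.35 (SE 0.31, adjusted p = 0.028), a call that ended with a common array median, without the groups of conflicting labels, or with all wild-derived strains in the fit (adjusted p = 0.057, 0.055 and 0.13).

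Akap7, Def8, Pradc1, Cptp and Cct7 made up the rest of the leading lower genes, with differences of -1.89 to -1.21. Akap7, an anchor of protein kinase A, read 6.19 and 6.17, and NZW/LacJ at 6.32 was the only classical strain below 7.28. Its call (adjusted p = 0.038) ended without FVB/NJ and SWR/J (0.051), without the groups of conflicting labels (0.058) or with a common array median (0.059). Def8 read 7.42 and 7.57 against 8.61 to 9.64, with PWD/PHJ at 7.93. Cct7, a subunit of the TRiC chaperonin, read 7.0 and 7.47 against 7.67 to 8.95, and lost its call without WSB/EiJ replicate 1 (-0.98, adjusted p = 0.077).

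**Figure D1:**
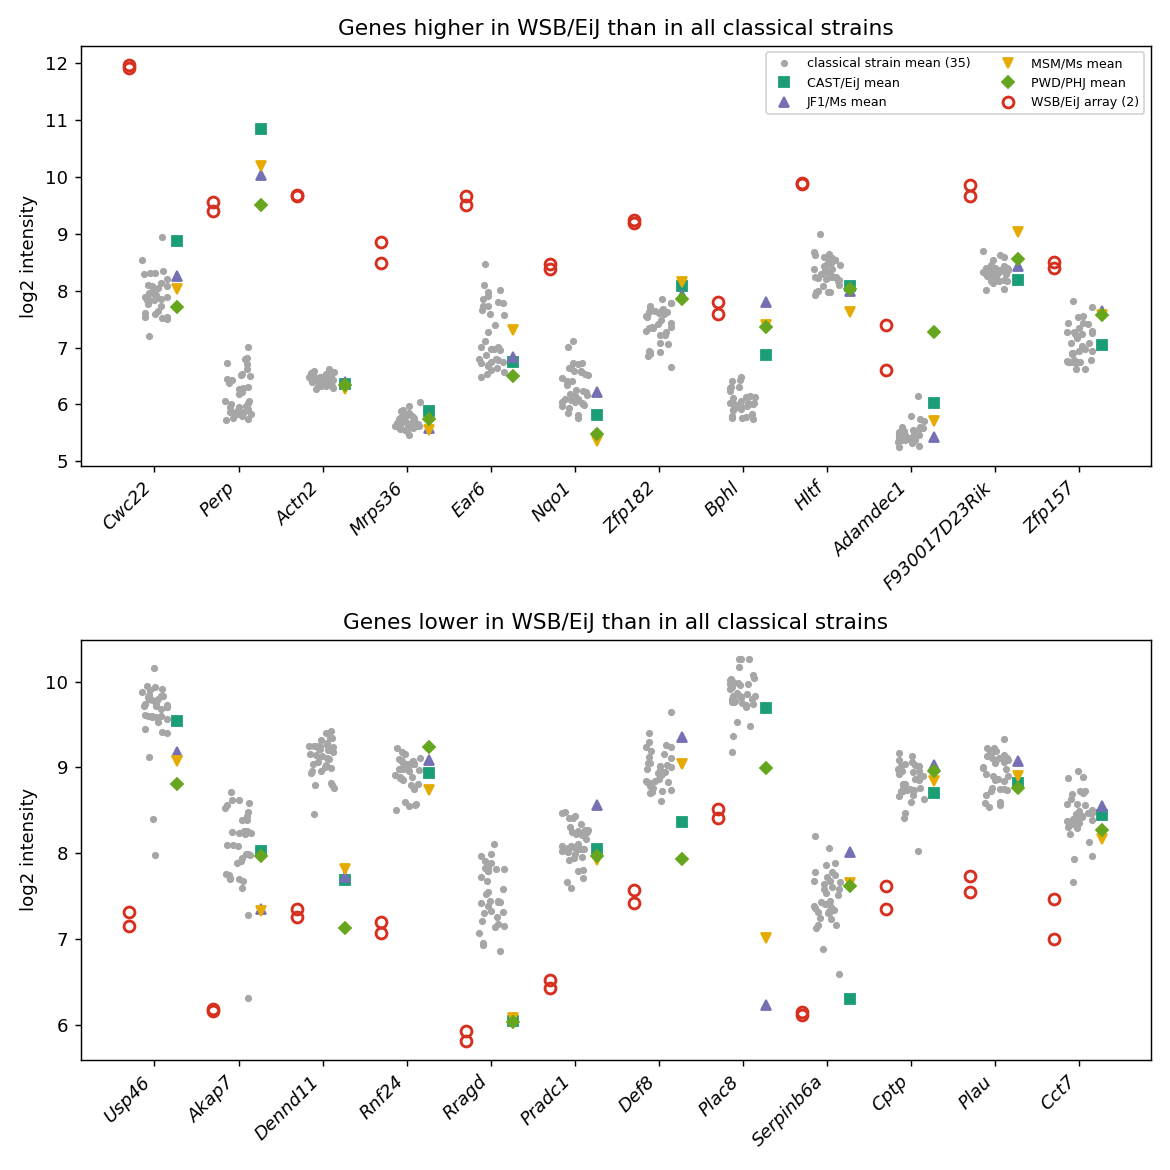
The 12 genes most raised (top) and the 12 most lowered (bottom) in WSB/EiJ by the naming rule, as log2 intensity. Grey points are the 35 classical strain means, coloured symbols the 4 other wild-derived strain means, and open red circles the 2 WSB/EiJ arrays. Both red circles lie beyond all grey points for every gene, as the rule required, and Perp, Bphl, Dennd11 and Rragd show the other wild-derived strains on the side of WSB/EiJ.

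Further called genes had smaller differences. Adgrg3, an adhesion receptor of granulocytes, read 10.44 and 10.53 against 11.11 to 11.81 (-0.92 ± 0.17, adjusted p = 2.1e-03). Fut4, a fucosyltransferase that builds selectin ligands, read 6.70 and 6.59 against 6.84 to 8.10 (-0.99 ± 0.24, adjusted p = 0.040), but 5 of the alternatives ended that call. PWD/PHJ was lower still for Fut4, at 6.28, with CAST/EiJ, JF1/Ms and MSM/Ms at 7.43 to 7.59. C1galt1, which makes the core 1 O-glycan on which such ligands are built, was higher, at 11.20 and 11.22 against 9.93 to 10.74 (0.85 ± 0.20, adjusted p = 0.033). CAST/EiJ reached 11.40 for C1galt1, with JF1/Ms, MSM/Ms and PWD/PHJ at 10.36 to 10.71. The C1galt1 call ended in 3 alternatives. The mitochondrial gene ND3, which encodes a subunit of complex I, read 8.96 and 8.99 against 9.68 to 10.89 (-1.13 ± 0.26, adjusted p = 0.027), a call that ended without the groups of conflicting labels (0.052). Ptpn3, a tyrosine phosphatase, was called at the brightest of its 12 probe sets (8.15 and 8.10 against 6.73 to 7.45, 1.16 ± 0.14, adjusted p = 1.3e-06). PWD/PHJ was as high there, at 8.21, with CAST/EiJ, JF1/Ms and MSM/Ms at 6.84 to 7.45. The other probe sets of Ptpn3, and the dimmer of 2 for ND3, were not compared. The genes of this paragraph, like Smap1 and Hsdl1 with differences of 1.14 and 1.12, were singled out after their values were seen.

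Called genes sat next to each other in several places. Among 19735 measured genes placed in the RefSeq gene order, 87 were called (0.441%), and 15 of these formed 7 runs in which called genes were at most 2 places apart. In 6 of the 7 runs the genes changed in the same direction. This order was read from an annotation of another source than the array, so only neighbourhood is used.

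The run with the largest differences held Zdhhc3 and Exosc7, which start back to back. Exosc7, a subunit of the RNA exosome, read 11.40 and 11.23 in WSB/EiJ. The classical strains split, with CE/J at 11.27 and all others between 7.03 and 8.46, and the difference was 3.62 ± 0.65 (adjusted p = 1.3e-03). Zdhhc3, a palmitoyltransferase, read 12.60 and 12.64 against 11.14 to 12.44, and CE/J was again the highest (1.11 ± 0.19, adjusted p = 9.2e-04). The next genes on the same side, Tgm4 and Tmem42, had differences of 0.50 and 1.12 that did not pass (adjusted p = 0.22 and 0.21), and CE/J was the highest classical strain for both. Among WSB/EiJ and the classical strains, WSB/EiJ and CE/J held the highest levels of these 4 genes. CE/J exceeded both WSB/EiJ arrays for Tmem42 (9.50 against 9.29 and 9.39) and 1 of them for Exosc7.

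Smyd5, Pradc1 and Cct7 formed the only run of 3, all lower. Smyd5, a SET domain methyltransferase, read 5.92 and 5.79 against 6.27 to 6.78 (-0.75 ± 0.13, adjusted p = 4.8e-04). Pradc1, a secreted protein with a protease-associated domain, read 6.53 and 6.43 against 7.60 to 8.48 (-1.63 ± 0.22, adjusted p = 1.7e-05). Cct7 had a difference of -1.21 ± 0.26 (adjusted p = 0.012). The neighbours on either side, Noto and Fbxo41, differed by -0.16 and 0.02.

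The starts of Pradc1 and Cct7, and those of Zdhhc3 and Exosc7, face away from each other with a short stretch between them. These stretches are shown because both genes of each pair moved together in WSB/EiJ, and they are the reference sequence of C57BL/6J from RefSeq (GRCm38.p6, plus strand), not that of WSB/EiJ. The first is chr6:85451303-85451504, 202 bases with 64.9% G or C, and the second is chr9:123113195-123113230, 36 bases with 75.0% G or C, against a median of 52.4% over 32851 promoters. No letters are in capitals because no motif was searched in them.
Pradc1-Cct7: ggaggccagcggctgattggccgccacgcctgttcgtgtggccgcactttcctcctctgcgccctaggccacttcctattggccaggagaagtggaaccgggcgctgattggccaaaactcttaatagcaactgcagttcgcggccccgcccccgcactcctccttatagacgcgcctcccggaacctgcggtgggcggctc
Zdhhc3-Exosc7: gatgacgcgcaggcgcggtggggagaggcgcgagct

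The other runs were pairs. Hps3, a subunit of the BLOC-2 complex of lysosome-related organelles, read 11.41 and 11.35 against 9.84 to 10.73 (0.98 ± 0.22, adjusted p = 0.019) beside Hltf. Cdk7, the kinase that activates other cyclin-dependent kinases, read 7.97 and 8.0 against 6.57 to 7.50 (0.89 ± 0.21, adjusted p = 0.030) beside Mrps36. With a common array median the calls of Hps3 and Cdk7 ended (adjusted p = 0.065 and 0.10). Cdk7 was read at the brighter of its 2 probe sets only. Tas1r3 (-0.79 ± 0.16, adjusted p = 7.2e-03) lay beside Cptp (-1.35 ± 0.23), a ceramide-1-phosphate transfer protein. Zfp300 (1.42 ± 0.09, adjusted p = 1.4e-13) lay near Zfp182 with Spaca5 (-0.07, adjusted p = 1.0) between them. In the pair that ran in opposite directions, Serpinb6a was lower (-1.35) and Bphl higher (1.66), and Nqo2 between them differed by 0.24 ± 0.31.

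**Figure D2:**
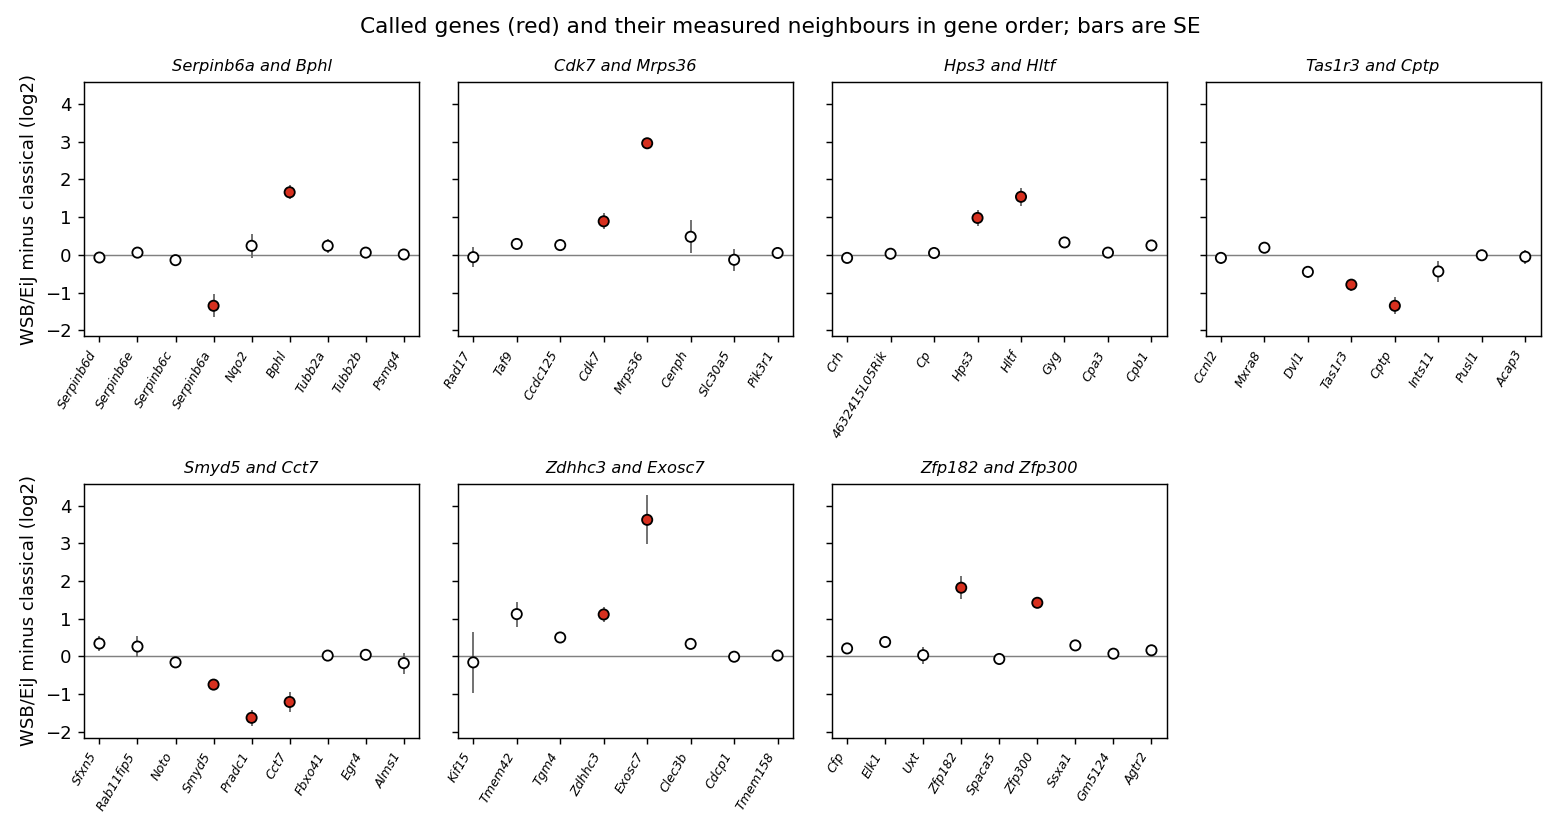
WSB/EiJ minus the mean of the 35 classical strains (log2, vertical axis, bars are SE) for the genes of each run and their measured neighbours, in gene order along the horizontal axis and not to distance. Red points passed in the strain fit and open points did not; Exosc7 reaches 3.62 and Pradc1 -1.63, while most open neighbours lie near 0.

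A second fit kept the arrays and asked a different question, whether WSB/EiJ differs from the average of the 35 classical strains by more than arrays of the same strain differ. Its p-values measure the spread between arrays of a strain, and a call there does not place WSB/EiJ outside the classical range. It called 2052 probe sets (8.23%), 854 higher (3.43%) and 1198 lower (4.81%). The higher share of 41.6% became 52.4% after quantile normalization, and the count fell to 790 without WSB/EiJ replicate 1 and to 887 without replicate 2. Among the 10827 brighter probe sets, 993 were lower (9.17%) and 550 higher (5.08%).

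Gene lists for neutrophil functions and for other cell types were read against these backgrounds. Over 32 lists with 396 measured genes, counting each gene once, 6 passed in the strain fit (1.52%, against 0.445% of all probe sets) and 94 in the array fit (23.7%, against 8.23%). The latter fell to 45 (11.4%) without WSB/EiJ replicate 1 and to 49 (12.4%) without replicate 2, as the count over all probe sets fell to 790 and 887. List genes were read at their brightest probe set, and 287 of the 396 averaged 7 or more over all strains. Of all probe sets that bright, 0.212% were higher and 0.406% lower in the strain fit. In the array fit 5.08% of them were higher and 9.17% lower. The lists were chosen with earlier results of these data known, so these shares are descriptions. The 6 genes were Nqo1 and Ear6, higher, and Clec4e, Tlr7, Tap2 and S100a8, lower.

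**Figure D3:**
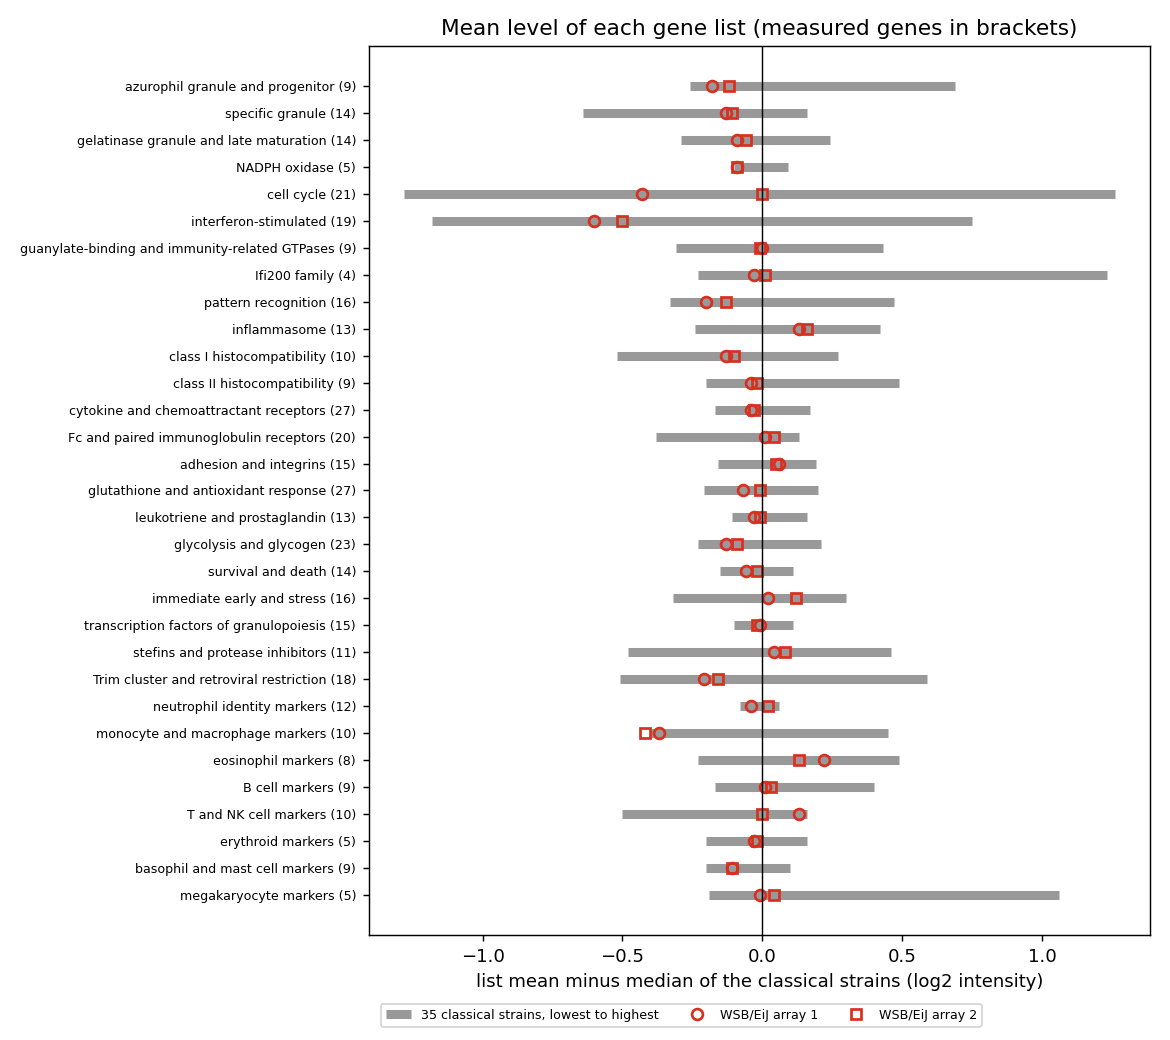
Mean log2 intensity of each gene list minus the median of the classical strains, with the number of measured genes in brackets. Grey bars run from the lowest to the highest of 35 classical strains and red symbols are the 2 WSB/EiJ arrays; the interferon-stimulated list, at 8.29 and 8.39 against a classical median of 8.89, lies left of 0 but inside the bar, and the monocyte and macrophage list lies at its lower end.

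Pattern recognition receptors held the called genes of the innate lists. Clec4e encodes Mincle, a C-type lectin for mycobacterial glycolipids. It read 9.89 and 10.01 against 10.05 to 11.52 (median 11.17), below every classical strain, and was lower by 1.17 (SE 0.25, adjusted p = 0.014). Its partner and neighbour Clec4d read 9.98 and 10.37 against 10.64 to 11.39, also below every classical strain, with a difference of -0.84 ± 0.22 that did not pass (adjusted p = 0.072). Clec7a, the beta-glucan receptor Dectin-1, differed by 0.15 ± 0.22.

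The endosomal receptors for single-stranded RNA differed in opposite directions, and Tlr7 alone passed. Tlr7 read 7.72 and 7.60 against 8.06 to 9.06 (-0.90 ± 0.21, adjusted p = 0.035). Tlr7 was also below the classical range in CAST/EiJ (7.32), JF1/Ms (7.80) and MSM/Ms (7.86), with PWD/PHJ at 8.28. Tlr7 did not differ between WSB/EiJ and these strains (-0.16, adjusted p = 0.99 in the limma fit over 3 classes). Its call ended without WSB/EiJ replicate 2 (adjusted p = 0.052), with a common array median (0.062) or with all wild-derived strains in the fit (0.086). Tlr8, which lies beside it on the X chromosome, read 11.57 and 11.54, above the classical range of 10.21 to 11.23, with a difference of 0.78 ± 0.26 that did not pass (adjusted p = 0.42). In the array fit, 6 of the 16 measured receptors and adaptors were lower, Clec4e, Clec4d, Tlr7, Tlr2, Cd14 and Myd88, and Tlr8 was higher. Of all probe sets 4.81% were lower and 3.43% higher there, and of the brighter ones 9.17% and 5.08%. The median difference over the 16 was -0.03. Tlr2 (-0.38) and Myd88 (-0.25) each lost that call when either WSB/EiJ array was left out.

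The list mean of interferon-stimulated genes was low in WSB/EiJ but inside the classical range. None of the 19 measured members passed in the strain fit. In the array fit, 8 were lower and none higher (4.81% of all probe sets and 9.17% of the brighter ones were lower there). The 8 were Oas2, Oas3, Rsad2, Oasl1, Isg20, Xaf1, Cmpk2 and Ifih1. Without WSB/EiJ replicate 1, or without replicate 2, 5 were lower, because Xaf1, Cmpk2 and Ifih1 did not pass in either. The median difference over the 19 was -0.42, against 0.00 over all probe sets, and the list mean was 8.29 and 8.39 in WSB/EiJ against 7.71 to 9.64 (median 8.89). Of the classical strains, 30 had a higher list mean and 5 a lower one. The other wild-derived list means ran from 7.51 to 8.75, also below the classical median. Of the 19 differences from the classical mean, 16 were below 0 and 3 above.

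Oas2, a 2'-5' oligoadenylate synthetase that activates RNase L, stood lowest. It read 7.62 and 7.77, below all classical means (7.84 to 11.30, median 10.36), and differed by -2.37 ± 0.80 in the strain fit (adjusted p = 0.43) with an SE of 0.19 in the array fit (adjusted p = 1.6e-14). Oas3 read 8.61 and 8.90 against 8.75 to 11.07, with 34 of 35 classical strains above it (-1.46, adjusted p = 3.7e-12 in the array fit and 0.85 in the strain fit). Rsad2, which encodes viperin, read 7.66 and 7.97 against 6.95 to 10.53 (-1.35, adjusted p = 5.8e-07 in the array fit and 1.0 in the strain fit). Some other members lay near the middle of the classical strains. Oasl2 read 9.68 and 9.98 with 16 classical strains above it, Ifit3 read 7.51 and 8.13 with 18 above, and Oas1a read 7.93 and 7.81 with 13 above.

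**Figure D4:**
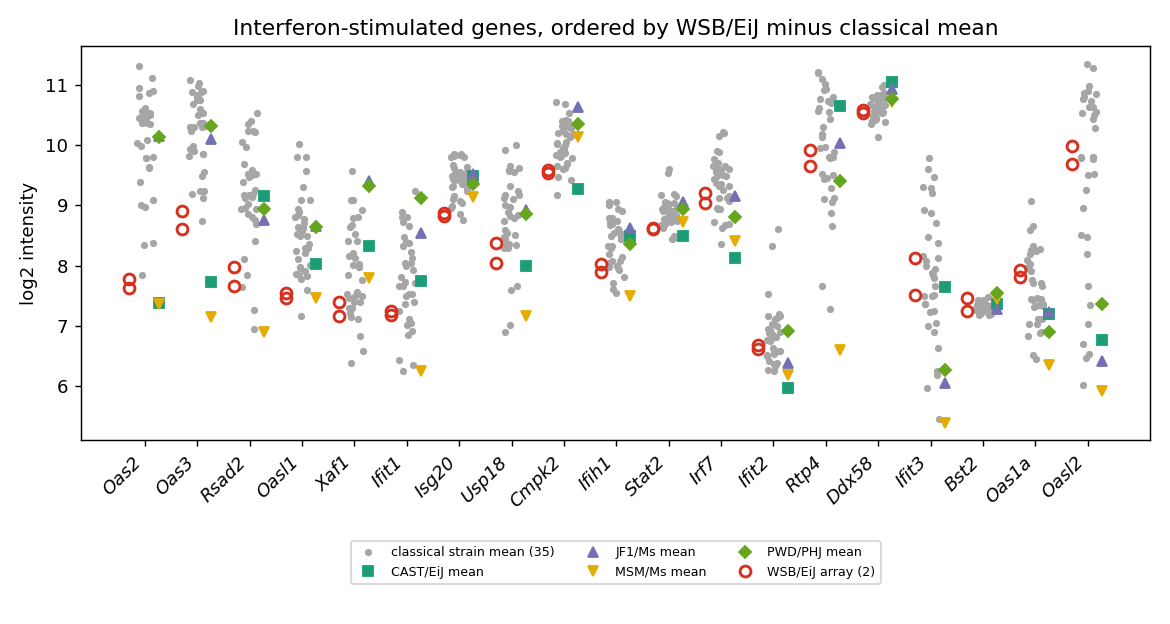
The 19 measured interferon-stimulated genes as log2 intensity, ordered by the WSB/EiJ minus classical difference. Open red circles are the 2 WSB/EiJ arrays, grey points the 35 classical strain means and coloured symbols the 4 other wild-derived means; Oas2 at 7.62 and 7.77 lies below all grey points, whereas Oasl2, Oas1a and Ifit3 lie within them.

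The promoters of Oas3 and Rsad2 are shown because both genes were among the lower members and each holds an interferon-response-like match. The search was for GAAANNGAAA on both strands in the 250 bases before the start, and capitals mark the match, which lies on the opposite strand in Rsad2. It occurred in 978 of 32851 promoters (2.98%), in 7 of the 16 list genes with a RefSeq promoter, and in 2 of the 7 lower genes with one. A gene was counted if any of its promoters held the match, so gene counts and the share of single promoters are in different units. The sequences are RefSeq reference sequence (GRCm38.p6), printed on the gene's own minus strand, from chr5:120777660-120777909 for Oas3 and chr12:26456453-26456702 for Rsad2. A match describes the letters only, and the WSB/EiJ sequence was not analysed here.
Oas3: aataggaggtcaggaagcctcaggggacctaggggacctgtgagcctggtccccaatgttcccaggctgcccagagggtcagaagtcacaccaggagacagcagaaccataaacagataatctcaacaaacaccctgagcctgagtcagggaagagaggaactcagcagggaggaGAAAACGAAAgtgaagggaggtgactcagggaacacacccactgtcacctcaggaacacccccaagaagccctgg
Rsad2: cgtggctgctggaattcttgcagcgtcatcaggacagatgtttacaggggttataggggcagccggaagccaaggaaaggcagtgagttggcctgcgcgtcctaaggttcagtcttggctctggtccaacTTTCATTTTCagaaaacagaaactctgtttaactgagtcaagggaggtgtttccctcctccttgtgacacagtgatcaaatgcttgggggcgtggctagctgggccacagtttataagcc

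Markers of monocytes and macrophages were also low in WSB/EiJ as a list mean. The list mean over 10 measured markers was 6.67 and 6.62, against 6.64 to 7.49 (median 7.04), and 34 of 35 classical strains were higher. The other wild-derived list means ran from 6.65 to 7.02, also below the classical median. Of the 10 differences from the classical mean, 7 were below 0 and 3 above. The array fit called 4.81% of all probe sets and 9.17% of the brighter ones lower. None of the 10 markers passed in the strain fit, and 4 were lower in the array fit, C1qa, C1qb, Adgre1 and Vcam1. When either WSB/EiJ array was left out 2 were lower, because C1qa (adjusted p = 0.099 and 0.61) and Vcam1 (0.17 and 0.16) did not pass. C1qb, a complement subunit made by macrophages, read 6.60 and 6.27 against 6.76 to 9.47 (-1.29 ± 0.57, adjusted p = 0.95 in the strain fit). Adgre1, which encodes F4/80, read 6.63 and 6.78 against 6.4 to 9.08 (-1.12 ± 0.78). Csf1r (10.07 and 10.19), Cx3cr1 (7.27 and 7.02) and Ccr2 (4.58 and 4.65) lay within their classical ranges. The part of these markers in the interferon and Clec4e values was not tested.

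Markers of further cell types were read in the same way. None of the 9 B cell, 10 T and NK cell, 5 erythroid, 9 basophil and mast cell or 5 megakaryocyte markers passed in the strain fit. The array fit called 2 of the 10 T and NK cell markers higher. It called 1 of the 9 B cell and 2 of the 9 basophil and mast cell markers lower. Of all probe sets, 3.43% were higher and 4.81% lower there, and of the brighter ones 5.08% and 9.17%. In the array fit Cd3d (9.91 and 9.73, classical 6.20 to 10.23) and Cd3g (7.81 and 7.13, classical 5.22 to 8.41) were higher, both within the classical range. Without WSB/EiJ replicate 1, 1 of these 2 passed. Cd79b, Kit and Hdc were lower in the array fit, by 0.29 to 0.55, but none of these 3 passed without replicate 2 and Cd79b did not without replicate 1.

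The antioxidant list did not follow Nqo1. Of 27 measured genes, Nqo1 alone passed in the strain fit, and the median difference was -0.12. The array fit called 3.43% of all probe sets higher and 4.81% lower, and 5.08% and 9.17% of the brighter ones. In the array fit Mgst2, Sod1 and Nfe2l2, the gene of Nrf2 itself, were higher with Nqo1, and Gsr, Hmox1 and Sod2 were lower. These 4 higher and 3 lower genes became 2 and 1 without WSB/EiJ replicate 1, and 1 and 2 without replicate 2. Sod1, Nfe2l2 and Sod2 lost their calls when either array was left out, Hmox1 without replicate 1 and Mgst2 without replicate 2. Gsr, glutathione reductase, read 11.02 and 11.18, below all classical means (11.25 to 12.55), and differed by -0.83 ± 0.44 in the strain fit (adjusted p = 1.0). Hmox1, haem oxygenase and another Nrf2 target, read 8.68 and 8.73 against 8.29 to 10.06 (-0.63 ± 0.37). The motif TGACNNNGC, the core of the antioxidant response element, was sought on either strand. At least 1 promoter held it in 8 of the 22 list genes with a promoter. It was not in the 250 bases before Nqo1. Over single promoters of all genes the share was 10.2%, a different unit, since a gene may have several promoters.

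Granule and maturation genes lay inside the classical span as lists. The azurophil and progenitor list mean was 7.08 and 7.14 (classical 7.0 to 7.95), the specific granule mean 12.51 and 12.53 (classical median 12.64, highest 12.80) and the gelatinase granule mean 11.65 and 11.68 (11.45 to 11.98). No member passed in the strain fit. Single members moved both ways in the array fit. Olfm4, a granule protein of a neutrophil subset, was higher (13.05 and 12.68, classical 9.87 to 13.18), whereas Prss57, a serine protease of azurophil granules, was lower and below every classical strain (6.80 and 6.97, classical 7.07 to 8.07). Both calls ended without WSB/EiJ replicate 1. The NADPH oxidase list, whose 5 measured subunits make the oxidative burst, had a mean of 12.70 on both arrays, with 34 of 35 classical strains above it, although the classical span was narrow (12.69 to 12.88). Of these, Ncf4 was lower in the array fit (-0.33 ± 0.08, adjusted p = 6.1e-03), a call that ended when either WSB/EiJ array was left out.

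The 21 cell cycle genes, whose level in marrow neutrophils follows the share of immature cells, had a median difference of -0.16. Their list mean was 7.68 and 8.11, against 6.83 to 9.37. None passed in the strain fit and Pcna alone was lower in the array fit (-0.61, adjusted p = 0.048), a call lost in 7 alternatives. No gene of the granulopoiesis transcription factor, survival and death, guanylate-binding or class II lists passed in either fit. The guanylate-binding gene Gbp2b, kept in another list, was lower in the array fit. That call ended without WSB/EiJ replicate 1 (-0.51) or replicate 2 (-0.43).

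Inflammasome sensors were among the genes with large differences inside a wide classical range. Naip5, a receptor for flagellin, read 9.30 and 9.13 against 6.82 to 9.26, and 1 classical strain was higher than its mean. Naip6 read 8.73 and 8.40 against 6.06 to 8.87. The Naip genes are close paralogs whose probes can share sequence, so they are uncertain. Nlrp1b, a sensor of bacterial proteases, read 6.02 and 5.99 against 5.91 to 8.45. The differences of 1.33, 1.28 and -1.08 passed in the array fit and not in the strain fit (adjusted p = 0.99, 1.0 and 1.0). Pycard, the adaptor ASC, was lower in the array fit (-0.69) and Casp4 higher (0.33). The Casp4 call ended when either WSB/EiJ array was left out (adjusted p = 0.19 and 0.49), with a common array median (0.094) and without the groups of conflicting labels (0.065).

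Tap2, a subunit of the peptide transporter for class I antigen presentation, was the called gene of that pathway. It read 8.39 and 8.41 against 8.77 to 9.32 (-0.63 ± 0.15, adjusted p = 0.047). The call ended with a common array median (adjusted p = 0.13), with a trended and robust variance prior (0.073) and with the replicate block (0.054). In the array fit, 2 of the 10 measured genes of the class I list were higher and 3 lower, and not all are named here. Of all probe sets, 3.43% were higher and 4.81% lower there, and of the brighter ones 5.08% and 9.17%. Tapbp, tapasin, read 10.38 and 10.33 against 10.35 to 11.02 and passed in the array fit only (-0.32, adjusted p = 3.5e-03), a call that ended when either WSB/EiJ array was left out (0.082 and 0.16).

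Receptor families varied both ways in the array fit and none of their genes passed in the strain fit. Of 20 Fc and paired receptors, 4 were higher and 4 lower (3.43% and 4.81% of all probe sets, 5.08% and 9.17% of the brighter ones). Without WSB/EiJ replicate 1 these counts were 2 and 3, and without replicate 2 they were 1 and 2. Cd300lf, Siglece and Fcgr4 lost their calls in both cases, and Cd300a and Fcgr2b without replicate 2. Cd300ld was the most raised, at 11.66 and 11.77 against 8.46 to 11.89 (1.52), and Pilrb2 the most lowered, at 10.68 and 10.69 against 10.50 to 11.87 (-0.82). Of 15 adhesion genes, 3 were higher and 2 lower. Itgax, which encodes CD11c, read 9.13 and 9.27 against 7.05 to 10.07 (1.03), and Cd63, a tetraspanin of azurophil granule membranes, read 8.26 and 8.32 against 7.47 to 10.14 (-1.08). Tnfrsf23, a decoy receptor for TRAIL, was the most lowered cytokine receptor gene, at 6.91 and 6.61 against 5.91 to 9.25 (-1.68). In the immediate early list, Zfp36, which destabilises cytokine transcripts, read 11.31 and 11.38, above all classical means (10.61 to 11.22). Nr4a1, an orphan nuclear receptor, read 7.16 and 7.20, below all of them (7.35 to 8.37). None of the 16 measured genes of that list passed in the strain fit, and 2 were higher and 1 lower in the array fit. The Zfp36 array call ended without WSB/EiJ replicate 1 (0.41) or replicate 2 (0.34).

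WSB/EiJ was then set against the 4 other wild-derived strains. This fit shares the WSB/EiJ arrays with the comparisons already given. It called 213 probe sets (0.855%), 101 higher (0.405%) and 112 lower (0.449%), and 381 without CAST/EiJ. For several of the leading genes WSB/EiJ had a classical level and the other wild-derived strains did not. Myo1d, a class I myosin, read 9.87 and 9.90, inside the classical range of 8.78 to 10.69, while the other wild-derived means were 5.43 to 6.16 (4.15 ± 0.59, adjusted p = 1.4e-05). Ibtk, an inhibitor of Bruton's tyrosine kinase, read 9.52 on both arrays, with classical means of 9.06 to 9.94 and other wild-derived means of 5.55 to 7.10 (3.24 ± 0.30, adjusted p = 7.1e-10). Rab23, a small GTPase of ciliary signalling, read 8.75 and 8.71 against 4.94 to 5.16 (3.68 ± 0.73, adjusted p = 2.7e-03), and CE/J at 5.07 was the only classical strain at that low level, the next being 7.30. Exosc7 stood 4.38 ± 0.70 above these strains (adjusted p = 1.2e-04).

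Siglecg was lower than in every other strain. This inhibitory receptor binds sialic acid and is best known on B cells. It read 7.30 and 7.31 in WSB/EiJ, 7.96 to 10.27 in the classical strains and 10.39 to 10.92 in the other wild-derived strains. The difference was -3.31 ± 0.64 (adjusted p = 2.0e-03) from the latter and -1.72 ± 0.60 (adjusted p = 0.52) from the classical strains. Il18r1, a subunit of the interleukin-18 receptor, read 8.24 and 8.02 (classical 7.96 to 9.46), with 10.00 to 10.22 in the other wild-derived strains (-2.0 ± 0.33, adjusted p = 2.3e-04).

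Mta3, a subunit of the NuRD chromatin complex, read 7.30 and 7.81, below the classical range of 8.29 to 9.87 and the other wild-derived range of 9.64 to 10.72 (-2.54 ± 0.44, adjusted p = 3.9e-04). A separate Mta3 probe set showed no such gap, at 6.98 and 7.11 and a difference of 0.01 ± 0.10. Scpep1, a serine carboxypeptidase, read 5.53 and 5.49, at the classical level (5.18 to 5.83), and so did CAST/EiJ at 5.74, while JF1/Ms, MSM/Ms and PWD/PHJ lay at 8.23 to 8.47 (-2.19 ± 0.43, adjusted p = 2.7e-03). Bcl2a1c, of a family of close paralogs, read 5.17 and 5.21 against 6.90 to 7.69 (-2.19 ± 0.50, adjusted p = 0.014). Odc1, the first enzyme of polyamine synthesis, read 5.92 and 6.36 against 7.22 to 9.11 (-2.12 ± 0.52, adjusted p = 0.030), but this call ended without WSB/EiJ replicate 1 (adjusted p = 0.056), JF1/Ms (0.094) or MSM/Ms (0.094), or without the groups of conflicting labels (0.057). A separate Odc1 probe set did not pass (-0.72, adjusted p = 0.22).

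**Figure D5:**
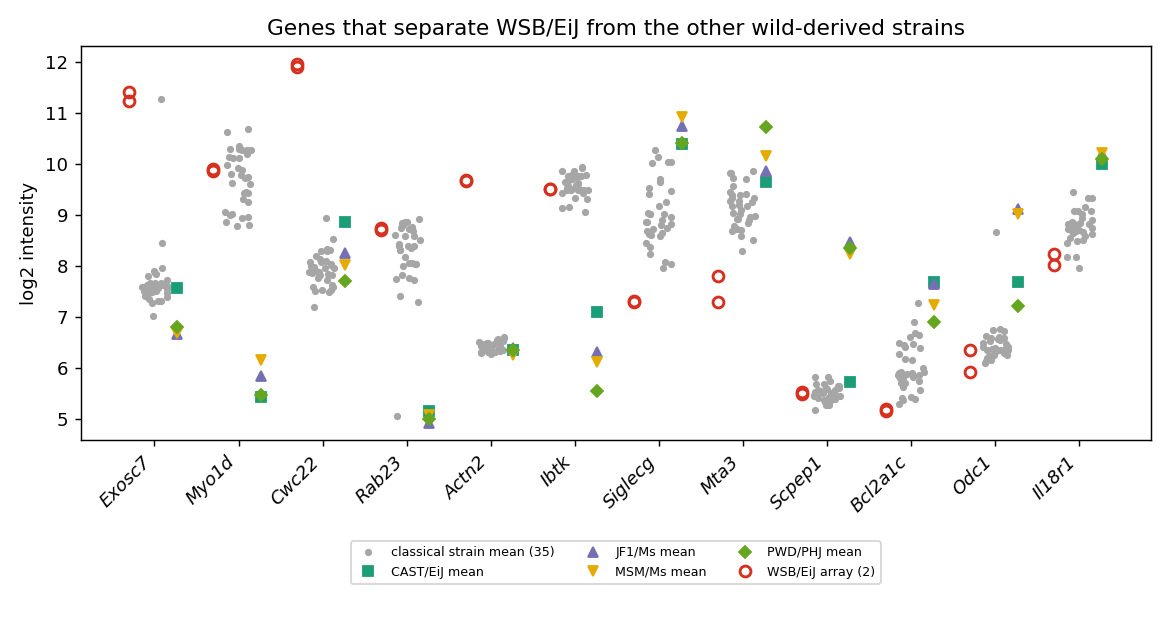
The 12 genes that separated WSB/EiJ most from the other wild-derived strains, as log2 intensity, with symbols for arrays and strain means as given in the key. Myo1d, Rab23, Ibtk and Scpep1 show WSB/EiJ (open red circles) among the classical strains (grey), and Cwc22, Actn2, Siglecg, Mta3 and Bcl2a1c show it beyond them.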

How the data were processed

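The authors deposited 1 table of linear intensities for 24922 probe sets on 81 arrays. Per the submitters' processing notes it was made with Affymetrix Power Tools and RMA, with a genome build not given in the sources used here. A total of 25134 probes is named in the design text. Intensities were taken to log2 without further scaling. Gene names came from the platform annotation: 21425 probe sets had 1 symbol, 1399 several and 2098 none, and a gene was read from its brightest probe set. Gene order and promoters were taken from RefSeq (GRCm38.p6). Arrays were averaged per title group, and WSB/EiJ was compared with 35 classical means, or with 4 other wild-derived means in a fit over 3 classes, by limma 3.58.1 (R 4.3.3) with Benjamini-Hochberg adjustment over all probe sets. A further fit used arrays with 1 mean per strain. The scripts were checked on simulated data. Nothing says how pools of mice were drawn beyond the label of 2 biological replicates, so array p-values measure the spread between these samples.

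The genes named were the 12 highest and 12 lowest called genes whose higher side was at least 7 and whose WSB/EiJ arrays both lay beyond all classical means. The like 6 and 6 against the other wild-derived strains and all neutrophil identity markers were also named. From the lists and the other cell type markers only some members were named. No member was named for some lists, such as Ifi200 and glycolysis, and array calls of other lists were left unnamed. The members and lists were chosen with earlier results of these data known. Python figures and tables used pandas and matplotlib. Alternatives were 2 further normalizations, a trended and robust variance prior, 2 brightness filters, other groupings of strains, left-out arrays or strains, and blocks by strain or replicate number.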

Additional observations from a re-analysis of the deposited data

Results flagged for a closer look

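Genes named for their difference from the classical strains, or from the other wild-derived strains, were put forward where WSB/EiJ and the 4 other wild-derived strains differed from the classical strains by unequal amounts. The test was the WSB/EiJ minus other wild-derived difference in the limma fit over 3 classes, at an adjusted p of 0.05 over all probe sets, and 24 of 34 named genes met it. Over all probe sets, 0.855% met it. The 12 genes named by that same contrast had to pass it, so their part of the count was fixed in advance. Their values are descriptions.

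WSB/EiJ was the higher for Exosc7 (4.38), Myo1d (4.15), Cwc22 (3.71), Rab23 (3.68), Actn2 (3.33), Ibtk (3.24), Mrps36 (2.98), Ear6 (2.73), Nqo1 (2.69), Hltf (1.95) and F930017D23Rik (1.20). WSB/EiJ was the lower for Siglecg (-3.31), Mta3 (-2.54), Scpep1 (-2.19), Bcl2a1c (-2.19), Odc1 (-2.12), Il18r1 (-2.0), Usp46 (-1.91), Rnf24 (-1.87), Pradc1 (-1.65), Cptp (-1.40), Plau (-1.25), Def8 (-1.18) and Cct7 (-1.13). Myo1d, Rab23, Ibtk and Scpep1 differed from the classical mean by 0.16, 0.47, -0.07 and 0.00, and none of these differences passed.

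A sample far from the others was looked for among the 4 other wild-derived means of the 34 named genes, a check that flags about 1 group in 20 by chance. CAST/EiJ stood apart in 3 genes, with Zfp157 at 7.05, Exosc7 at 7.56 and Scpep1 at 5.74.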

How the results depend on the processing

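Counts of called probe sets stayed within 1.5 times their main value in most alternatives. The count against the classical strains was 111 and rose to 190 with strain as a random block. Without a WSB/EiJ array it ranged from 143 to 152, the array count of 2052 from 790 to 887, and the count against the other wild-derived strains, 213, from 270 to 316. Without CAST/EiJ the last became 381. The number of interferon-stimulated genes lower in the array fit, 8, was 5 when either WSB/EiJ array was left out.

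Over fits of the same probe set, 19 of the 24 leading genes against the classical strains kept their call in every alternative that tested them, and 18 did so when their other probe sets are counted too, since Dennd11 lost its call there. The same held for 48 of 87 called genes, 11 of the 12 named against the other wild-derived strains, and 36 of 86 list genes called in the array fit. Of those 86, 46 lost their call without WSB/EiJ replicate 1 and 41 without replicate 2. None of these genes reversed at its own probe set. Other probe sets were compared only for the leading genes and those named against the other wild-derived strains. Mta3 reversed to 0.01 against the other wild-derived strains at a separate probe set; the cause was not tested.

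Replicate numbers were not treated as a pairing of the samples. Over 595 pairs of strain groups the correlation of deviations had a median of 0.00 and exceeded 0.1 in 148. It ran from -0.5 to 0.51, so the median does not show whether some arrays of the same number belong together. With the replicate block the counts were 108, 1995 and 222.

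WSB/EiJ rests on 2 arrays and 1 strain mean, array signal has no measured floor here, and RNA level and probe binding cannot be told apart.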

Other observations

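Both vanins, which are pantetheinases, lay above all classical means in WSB/EiJ. Vnn1 read 5.76 and 5.91 against 5.11 to 5.58 and passed in the strain fit (0.48, adjusted p = 8.1e-03). JF1/Ms at 5.91, CAST/EiJ at 5.66 and PWD/PHJ at 5.64 were also above the classical range for Vnn1, and MSM/Ms at 5.46 was not. Vnn3 read 10.06 and 10.11 against 7.45 to 9.78 and did not pass (1.27, adjusted p = 0.99). Cstb, the protease inhibitor stefin B, read 9.40 and 9.53 against 8.37 to 9.42, and did not pass in the strain fit. It was higher in the array fit, a call that ended without WSB/EiJ replicate 1 (0.69) or replicate 2 (0.57). Wfdc21, a whey acidic protein family member, read 10.67 and 10.60, below all classical means (10.69 to 11.78, a difference of -0.79 with adjusted p = 0.19).

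Of 18 measured genes of the Trim cluster and of retroviral restriction, none passed in the strain fit. In the array fit 3 were higher and 5 lower (3.43% and 4.81% of all probe sets, 5.08% and 9.17% of the brighter ones). Without WSB/EiJ replicate 1 these counts were 1 and 3, and without replicate 2 they were 1 and 4. Trim34a, Samd9l and Slfn5 lost their calls in both cases, Slfn2 without replicate 1, and Trim12a when strains were grouped by background label. Apobec3, a cytidine deaminase, read 8.85 and 9.16 against 7.41 to 9.33, with 2 classical strains above it. Slfn1 read 11.47 and 11.63 and Slfn2 11.31 and 11.46, with 31 and 34 of 35 classical strains above them. Trim30d, with a mean of 4.63, and Samd9l, at 11.25 and 11.07, fell in ranges that ran from 4.24 to 10.04 and from 3.89 to 11.81 over the classical strains.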
